A study of Mus musculus with 5 samples.

Results

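Receptors for extracellular nucleotides were followed in the mouse thoracic aorta. The 10 genes are P2rx1, P2rx3, P2rx4, P2rx5 and P2rx7, which encode ATP-gated P2X channels, and P2ry1, P2ry2, P2ry6, P2ry12 and P2ry14, which encode P2Y receptors coupled to G proteins. They were chosen by receptor family and with the genotype differences of these same arrays known, so the contrast between genotypes is given for them as a description, with no test. Every probe set that the platform annotation ties to 1 of these genes alone was taken, 18 probe sets among 45037 and 10 genes among 18193. Microarrays of 2 RNA pools from non-transgenic littermates (controls) were compared with those of 3 pools from transgenic mice. The transgenic mice carried P467L, a dominant negative mutant of human PPARγ driven by the promoter of smooth muscle myosin heavy chain (SMMHC). All mice were male, the strain label is C57BL/6 for every array, and no age was given in the sources used here. Each array held RNA of 6 to 8 pooled aortas, so differences between single mice are not visible. The transgene adds the mutant beside the mouse's own Pparg, and the promoter limits it to smooth muscle while the RNA came from the whole vessel wall.

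Nucleotides leave nerves, endothelium and injured cells and act on the cells around them until ectonucleotidases degrade them. P2X channels open on binding ATP and let in sodium and calcium. P2Y receptors answer to ATP, ADP, UTP, UDP or UDP-sugars, depending on the subtype, through Gq or Gi proteins. In arteries, ATP released by sympathetic nerves together with noradrenaline contracts smooth muscle largely through P2X1, while nucleotides acting on the endothelium relax the vessel.

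Values are RMA expression values on the log2 scale, in which 1 unit is a doubling. Levels of different probe sets depend on the probes as well as on the RNA, so a level is compared only with the level of the same probe set on other arrays. No detection call was used, and the median of all probe set means, 6.23, serves only to mark which probe sets are dim. On each array the 6 smooth muscle markers Acta2, Myh11, Tagln, Cnn1, Smtn and Des lay above the array median. Their summed level ran from 16.51 to 16.52 on the non-transgenic arrays and from 16.53 to 16.55 on the P467L arrays. Des and Smtn had every P467L array above both controls, by differences of 0.81 (SE 0.13) and 0.16 (SE 0.04), and the other 4 overlapped. P467L replicate 1 stood apart from the rest, with 842 probe sets at least 1 unit below all other arrays and 0 as far above. Non-transgenic replicate 2 was highest in all 5 stomach markers, whose summed level was 14.89 there, 10.96 in non-transgenic replicate 1 and 11.79 to 12.16 in the P467L arrays.

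The DNA just upstream of the genes was read to show where PPARγ or smooth muscle factors could be looked for in the receptors that differed most, and in the P2rx4 gene, which holds the match described next. Windows of 160 bases that end at the base before the earliest annotated start were taken from the RefSeq promoter table (GRCm38.p6), which held such a window for 7 of the 10 genes. P2rx3, P2rx5 and P2ry6 had no entry. Each is printed 5′ to 3′ along the gene's strand, with any match to AGGTCA, the hexamer that nuclear receptors bind, on either strand in capitals.
P2rx1, chr11:72998896-72999055, plus strand: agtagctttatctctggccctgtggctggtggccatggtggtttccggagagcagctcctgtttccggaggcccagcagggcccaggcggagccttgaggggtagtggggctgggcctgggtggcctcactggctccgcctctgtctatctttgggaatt
P2ry12, chr3:59262986-59263145, minus strand: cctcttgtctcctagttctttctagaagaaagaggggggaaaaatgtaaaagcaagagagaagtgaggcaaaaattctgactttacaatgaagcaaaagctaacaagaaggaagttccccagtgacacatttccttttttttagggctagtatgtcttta
P2ry14, chr3:59153493-59153652, minus strand: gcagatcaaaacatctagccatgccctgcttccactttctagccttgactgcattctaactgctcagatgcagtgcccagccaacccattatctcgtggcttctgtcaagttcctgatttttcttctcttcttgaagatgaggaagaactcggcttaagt
P2rx4, chr5:122707358-122707517, plus strand: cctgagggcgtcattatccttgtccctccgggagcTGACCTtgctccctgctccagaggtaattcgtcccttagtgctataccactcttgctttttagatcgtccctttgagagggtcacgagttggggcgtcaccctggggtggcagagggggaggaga
Of the 7 windows, the P2rx4 window alone held the hexamer, once, on the opposite strand, so that it reads TGACCT. Over all 22686 genes with such a window, 9.31% held it. Neither the direct repeat of that hexamer with 1 spacer base, the form PPARγ and its partner RXR bind, nor the CArG box of serum response factor was found in any of the 7. Over all genes these motifs were in 0.04% and 0.93% of windows. No match says only that these letters are not in this stretch. Base composition differed, at 63.1% G or C for P2rx1, 38.1% for P2ry12 and 46.2% for P2ry14.

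Among the P2X channels, P2rx1 was lower in P467L aortas by both of its probe sets. P2X1 is the main ATP-gated channel of arterial smooth muscle and is also found on platelets. The probe set with the higher mean, 1460719_a_at, read 8.96 and 8.93 in controls against 7.34, 7.05 and 6.42 in P467L replicates 1, 2 and 3. The non-transgenic arrays lay within 0.03 of each other, every P467L array was at least 1.59 units lower, and the P467L arrays themselves spanned 0.92. The other probe set, 1429794_a_at, read 8.14 and 8.18 against 6.69, 6.59 and 6.48, with a gap of 1.45 between the groups and a span of 0.21 among the P467L arrays.

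As P467L minus non-transgenic, the difference was -2.01 (SE 0.30) for 1460719_a_at, a level 4.02-fold lower, and -1.57 (SE 0.07) for 1429794_a_at, 2.98-fold lower. The SE is that of the moderated limma fit over all probe sets. Of 45037 probe sets, 7 were lower by at least as much as the first and 15 by at least as much as the second, each counting itself. Relative to the non-transgenic mean, P467L replicate 1 held 32.9%, replicate 2 held 26.9% and replicate 3 held 17.4% of the signal at 1460719_a_at. At 1429794_a_at these shares were 36.1%, 33.7% and 31.2%. The 2 probe sets thus gave like shares in replicate 1 and parted most in replicate 3. In RNA of a whole vessel, fewer cells of a type and less RNA per cell cannot be told apart.

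**Figure D1:**
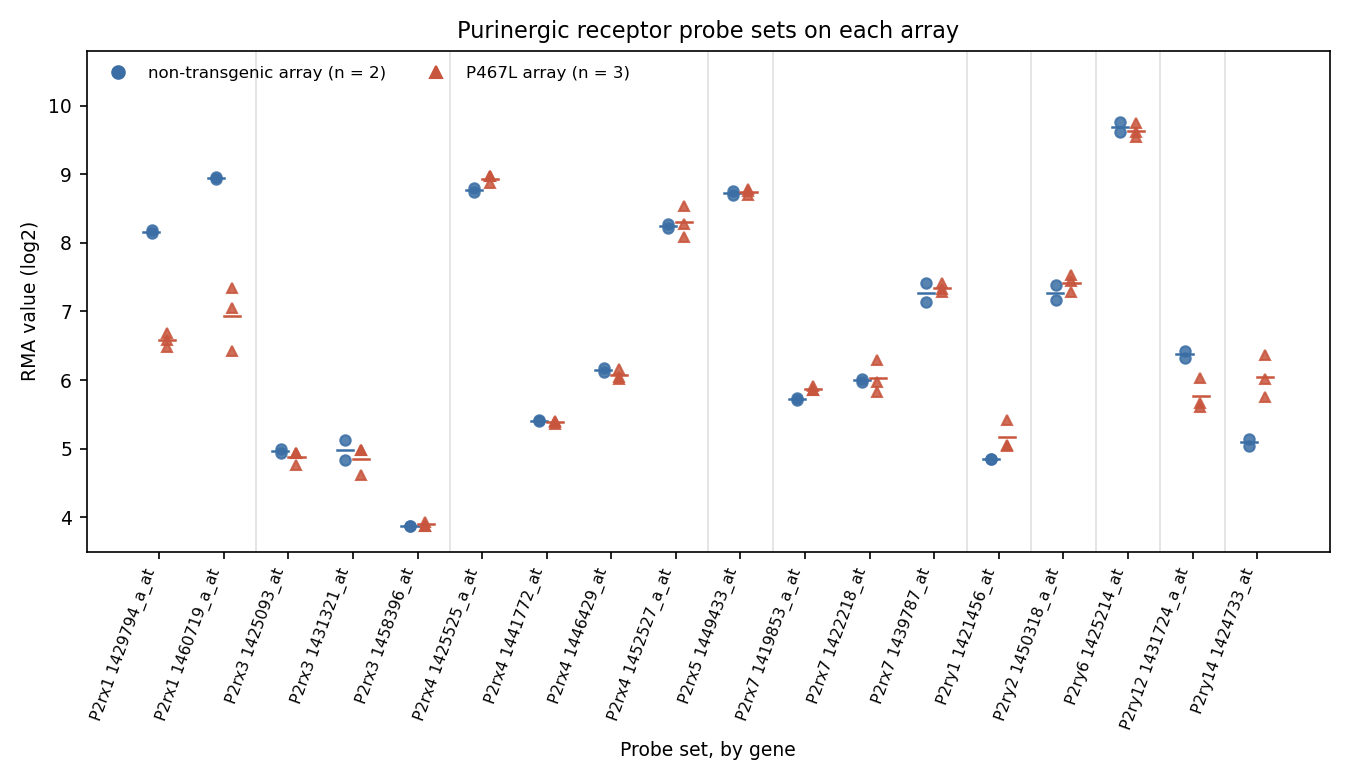
RMA value (log2) of each of the 18 purinergic receptor probe sets on the 2 non-transgenic (circles) and 3 P467L arrays (triangles), with short lines at the group means. The groups lie far apart for both P2rx1 probe sets, where the P467L arrays sit 1.45 or more below the non-transgenic arrays, and P2ry14 is the probe set with the clearest rise.

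Array features were set beside the P2rx1 values. Replicate 2 minus replicate 1 of the controls came to 3.93 in the summed stomach markers and to -1.13 in the summed adipocyte markers. P2rx1 at 1460719_a_at read 8.96 and 8.93 in control replicates 1 and 2. With P467L replicate 1 and non-transgenic replicate 2 left out, a comparison added after the data were seen, the differences were -2.23 and -1.60. All 4 measured platelet markers lay above the array medians on each array. Their summed level was 11.88 and 11.92 in controls against 11.88, 11.63 and 11.59 in P467L replicates 1, 2 and 3, and Ppbp, a platelet chemokine, was lower by 0.45 (SE 0.08). Ppbp read 10.39 in both controls against 10.06, 9.92 and 9.83, and the other 3 platelet markers overlapped. The part of platelets, or of stomach or fat tissue, in the P2rx1 difference was not tested. The neuron markers, which include Th and Dbh of noradrenergic nerves, summed to 8.35 and 8.31 against 8.14 to 8.31. Dbh read 7.23 and 7.18 against 7.11, 6.96 and 6.92, a difference of -0.21 (SE 0.07) with no overlap. Tubb3 and Snap25 were higher with no overlap, by 0.17 (SE 0.10) and 0.05 (SE 0.04), while Th and Prph overlapped. Of these 5 markers, Th, Tubb3 and Snap25 were not above the array median on every array.

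P2rx3, the ATP-gated channel of sensory neurons, was dim by all 3 probe sets and showed no separation. The probe set 1425093_at read 4.99 and 4.94 in non-transgenic and 4.94, 4.94 and 4.76 in P467L arrays. Its ranges overlapped, as did those of 1431321_at, with 5.13 and 4.84 against 4.98, 4.98 and 4.61. At 1458396_at all arrays read 3.88 except P467L replicate 1 at 3.93. The differences were -0.09 (SE 0.07), -0.13 (SE 0.17) and 0.02 (SE 0.04). All 3 probe sets lay below the median of probe set means.

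P2rx4 encodes the ATP-gated channel of endothelium and macrophages that takes part in the endothelial response to flow. Its probe set with the highest mean, 1425525_a_at, read 8.80 and 8.74 in non-transgenic and 8.97, 8.97 and 8.87 in P467L arrays, a difference of 0.17 (SE 0.05). The groups did not overlap there, with a gap of 0.07. The other bright probe set, 1452527_a_at, read 8.21 and 8.27 against 8.54, 8.27 and 8.09, and its P467L range enclosed both non-transgenic arrays. Its difference was 0.06 (SE 0.15). The dim probe sets 1441772_at and 1446429_at gave -0.02 (SE 0.04) and -0.07 (SE 0.06) with overlapping ranges, so the small rise at 1 probe set was not seen at the other 3.

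P2rx5, another ATP-gated channel, was read by 1 probe set at 8.75 and 8.70 in non-transgenic and 8.79, 8.75 and 8.70 in P467L arrays. The P467L range held both non-transgenic values, and the difference was 0.02 (SE 0.04). P2rx7, the channel through which ATP triggers interleukin-1β release from macrophages, read 7.14 and 7.41 against 7.42, 7.28 and 7.33 at its brightest probe set, 1439787_at. That difference was 0.07 (SE 0.10), within the spread of the non-transgenic arrays. At 1419853_a_at the P467L arrays, 5.91, 5.85 and 5.85, lay above the non-transgenic 5.74 and 5.71 by a difference of 0.15 (SE 0.04). The remaining P2rx7 probe set, 1422218_at, read 5.97 and 6.02 against 6.29, 5.97 and 5.83, a difference of 0.04 (SE 0.15) with P467L arrays on either side of the non-transgenic ones.

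Among the P2Y receptors, P2ry14 was higher and P2ry12 lower in P467L aortas. P2Y14 answers to UDP-glucose and other UDP-sugars. P2ry14 read 5.14 and 5.04 in non-transgenic and 6.37, 6.02 and 5.76 in P467L arrays. Every P467L array exceeded both non-transgenic arrays, by a gap of 0.62, and the P467L arrays spanned 0.61. The difference was 0.96 (SE 0.20), a level 1.95-fold higher, and 61 of 45037 probe sets, itself included, were higher by at least as much. All arrays except P467L replicate 1 read below 6.23. The mean over the 5 arrays, 5.67, places P2ry14 among the dim probe sets.

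P2Y12 is the ADP receptor of platelets, the target of clopidogrel, and is also found on microglia. P2ry12 read 6.43 and 6.32 in non-transgenic and 5.61, 5.66 and 6.03 in P467L arrays. All P467L arrays lay below, the nearest, replicate 3, by 0.29. Its mean over the 5 arrays, 6.01, is below 6.23, so it too is among the dim probe sets. The difference was -0.61 (SE 0.15), a level 1.52-fold lower, and 451 probe sets were lower by at least as much.

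P2Y1, an ADP receptor of platelets and endothelium, was read in the dim range. P2ry1 measured 4.85 in either control and 5.42, 5.06 and 5.04 in the P467L arrays. The groups did not overlap, and replicate 1 stood 0.36 above the next P467L array. The difference was 0.32 (SE 0.14), and 0.20 without that array.

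P2Y2, which answers to ATP and UTP and relaxes vessels through the endothelium, showed overlapping groups. P2ry2 read 7.16 and 7.39 in non-transgenic and 7.53, 7.44 and 7.28 in P467L arrays, a difference of 0.14 (SE 0.11). P2Y6, a UDP receptor that contracts smooth muscle, overlapped as well. P2ry6 read 9.62 and 9.76 against 9.74, 9.61 and 9.55, a difference of -0.06 (SE 0.08). These 2 genes lie next to each other on chromosome 7.

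Values of immune markers were set beside those of P2ry12 and P2ry14, both of which are found on blood and immune cells. The 6 macrophage markers summed to 12.46 and 12.47 in controls against 12.88, 12.51 and 12.67 in P467L replicates 1, 2 and 3, so the sum was higher on all P467L arrays, most on replicate 1. C1qa and C1qb had no overlap, and the other 4 did. C1qb was higher by 0.36 (SE 0.12) and Cd68 by 0.20 (SE 0.16). The 5 measured lymphocyte markers summed to 8.74 and 8.73 against 8.69, 8.40 and 8.51, and 2 of the 5, Cd3e and Cd79a, exceeded the median on each array. Among the P467L arrays the summed platelet markers were lowest in replicates 2 and 3, and P2ry12 was lowest in replicates 1 and 2. The part of these cells in the P2ry12 and P2ry14 values was not tested. The endothelial markers summed to 12.45 and 12.49 against 12.44 to 12.50.

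**Figure D2:**
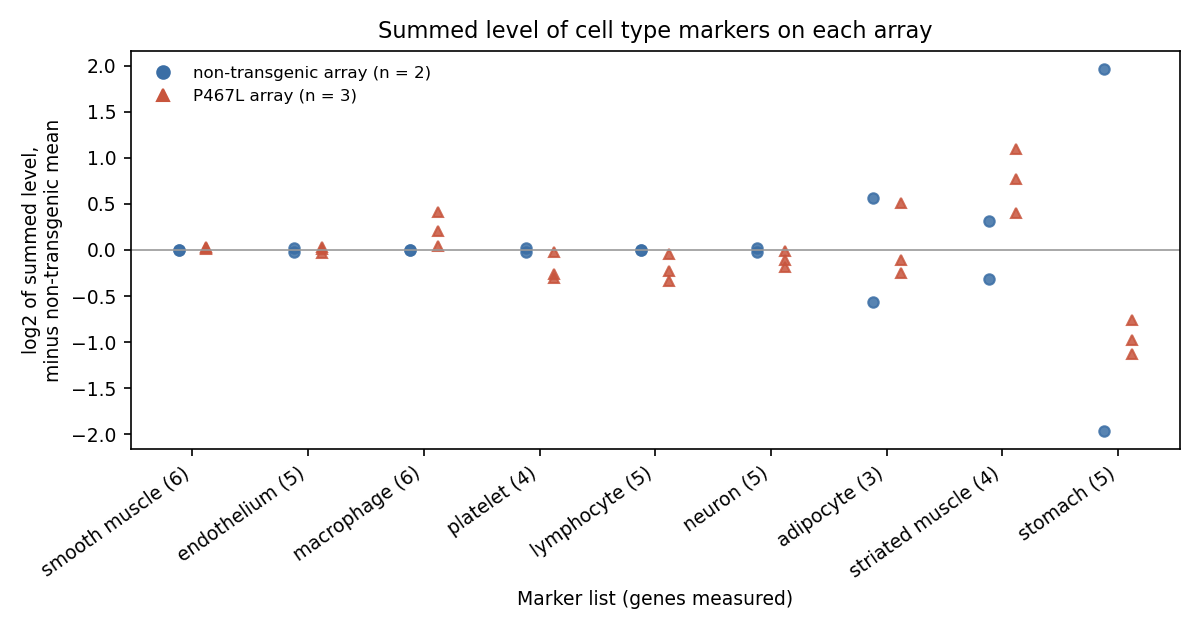
Summed level of the markers of 9 cell types on each array, as log2 of the sum of linear values minus the non-transgenic mean, with the number of measured genes in brackets. Smooth muscle and endothelium vary least. The summed macrophage and striated muscle levels are higher on the P467L arrays, though 4 of 6 macrophage markers overlap and Ckm alone of the 4 striated muscle markers is higher, and the 2 non-transgenic arrays differ by 3.93 in stomach markers.

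Over the 18 probe sets, 3 had every P467L array below both non-transgenic arrays, which are both P2rx1 probe sets and P2ry12, where 7.61% of all probe sets did. A further 4 had every P467L array above, 1 probe set each of P2rx4, P2rx7, P2ry1 and P2ry14, where 11.2% of all probe sets did. The remaining 11 overlapped. These shares, 16.7% and 22.2% of the 18, are given as a description, since this contrast was known when the genes were chosen and probe sets of 1 gene share their transcript. The lower count came to 6 on leaving out P467L replicate 1 and to 7 on leaving out non-transgenic replicate 2, when fewer arrays have to separate. The median difference was 0.02 over the 18 and 0.00 over all probe sets. In 13 of the 18 the difference was under 0.2 in size. It was 0.3 or more in 5, or 27.8%, against 7.47% of all probe sets, and those 5 are the P2rx1, P2ry1, P2ry12 and P2ry14 probe sets. The fit called 0 of 45037 probe sets, or 0%, at an adjusted p of 0.05 by limma with Benjamini-Hochberg adjustment, and 3353 lay under an unadjusted p of 0.05.

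**Figure D3:**
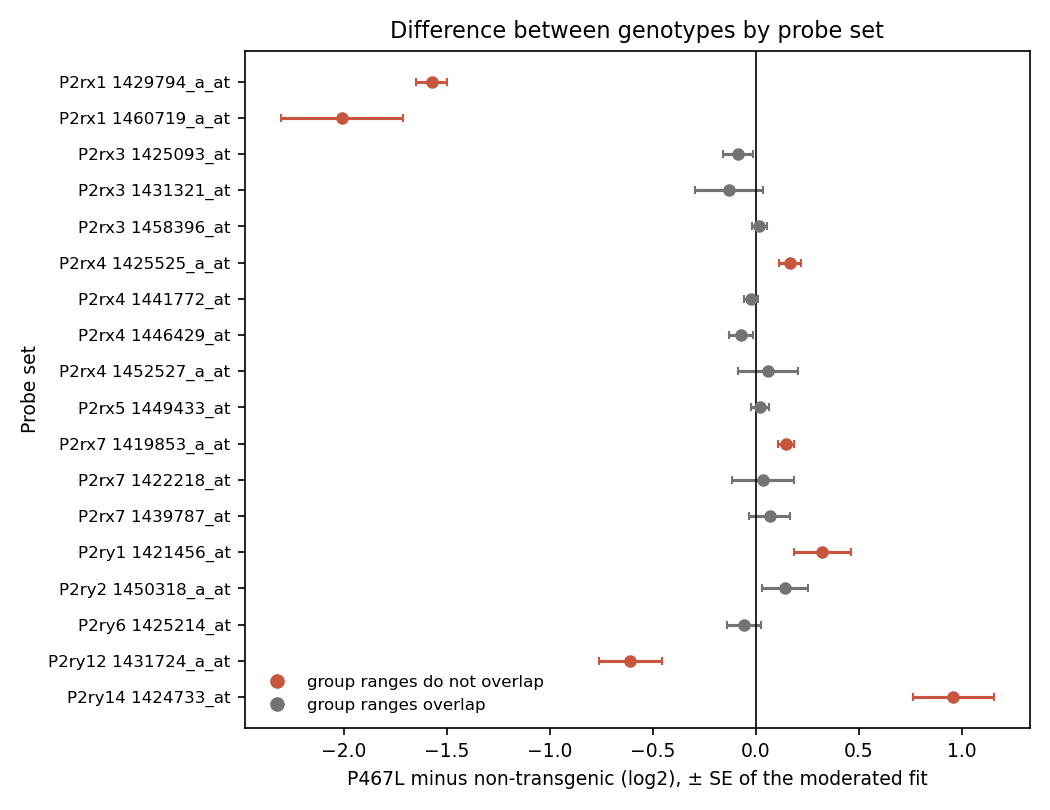
Difference P467L minus non-transgenic (log2) for each probe set, with bars of ± 1 SE from the moderated fit over 2 and 3 arrays; colour marks the 7 probe sets whose group ranges do not overlap. The P2rx1 differences of -1.57 and -2.01 and the P2ry14 difference of 0.96 are the largest, and 13 of 18 lie within 0.2 of 0.

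The P467L arrays differed among themselves in a shared way. In 14 of the 18 probe sets replicate 1 was the highest P467L array, against 46.2% of all probe sets, and in 14 of 18 replicate 3 was the lowest, against 39.5%. P2ry12 ran the other way, with replicate 3 the highest. The order over all probe sets was alike, with replicate 1 most often the highest P467L array and replicate 3 most often the lowest. Replicate 1 was the lowest of the P467L arrays in 24.0% of all probe sets. Replicate 1 is also the array that stood apart, through some probe sets with far lower values. It had 842 probe sets at least 1 unit below all other arrays and 0 as far above.

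Several of the genes are neighbours, and their differences were compared with those of the genes around them. P2rx1 and P2rx5 lie on chromosome 11 with 4 protein-coding genes between them, and P2rx5 differed by 0.02. The gene on the other side of P2rx1, Atp2a3, encodes a calcium pump of the endoplasmic reticulum. It read 10.35 and 10.41 in non-transgenic and 10.08, 9.88 and 9.81 in P467L arrays, a difference of -0.46 (SE 0.10) with no overlap. Ncbp3, the nearest measured gene on the P2rx5 side of P2rx1, read 8.44 and 8.52 against 8.44 in all 3 P467L arrays. P2ry14 and P2ry12, which differed in opposite directions, both lie on chromosome 3. P2ry13, which encodes another ADP receptor and adjoins P2ry12, measured -0.14 (SE 0.10). P2rx4 and P2rx7 adjoin each other on chromosome 5. The part of gene position in any of these differences was not tested.

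The genes whose profile over the 5 arrays lay nearest to that of P2rx1 at 1460719_a_at were taken by root mean square difference after each profile was centred, with 1 probe set per gene. P2rx1 was chosen for its pattern, so the list is a description. Nearest was Asb5, of the ankyrin repeat and SOCS box family, at 0.31, with 5.97 and 6.20 in non-transgenic against 4.08, 4.40 and 4.09 in P467L arrays. Next came 2210407C18Rik at 0.41, Hspa1l, a testis-enriched member of the HSP70 chaperones, at 0.44, Fam81a at 0.47 and Timp4, an inhibitor of matrix metalloproteinases, at 0.47. Their differences ran from -1.14 for Timp4 to -1.90 for Asb5. Asb5 read below 6.23, the mark for dim probe sets, on every array, and Hspa1l did so on the P467L arrays. With the other P2rx1 probe set as the reference, 4 of these 5 were again among the first 5, and Myoz2 took the place of Hspa1l.

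**Figure D4:**
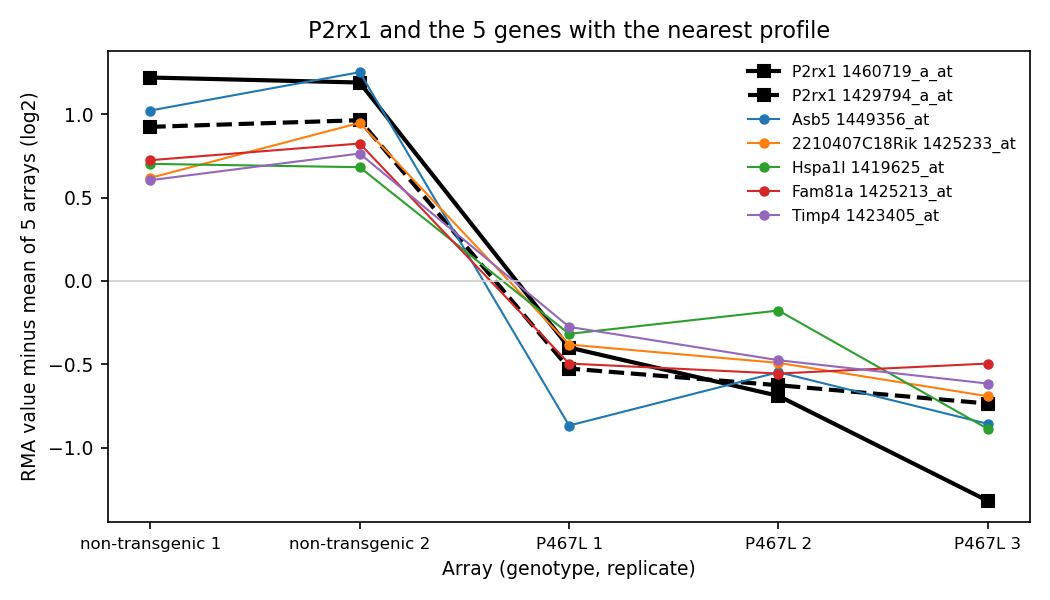
Profiles over the 5 arrays of both P2rx1 probe sets (black) and of the 5 genes nearest to 1460719_a_at, as RMA value minus the mean of the 5 arrays (log2). All lie above 0 on both non-transgenic arrays and below 0 on the 3 P467L arrays.

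Other genes of nucleotide signalling, from lists covering the remaining P2 receptors, adenosine receptors, ectonucleotidases, release and adenosine handling, signalling below the receptors and sympathetic co-transmitter receptors, were tested in the same fit. Of the 57 measured genes, 0 were called at an adjusted p of 0.05 by limma, and the smallest adjusted p was 0.298. At an unadjusted p of 0.05, 5 were higher, or 8.77%, where 6.94% of all genes were, and 4 were lower, or 7.02%, where 2.51% were. These lists too were chosen with earlier results of these data known, so the shares are a description. The median difference was 0.02 over the 57 and 0.02 over all 18193 genes. A further 16 listed genes had no probe set of their own in the annotation used here, among them Adora1, Adora2a, Adora2b, Itpr1, Enpp1 and 7 adrenergic receptors, and were not analysed here.

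The remaining P2 receptors were dim or alike between the groups. All 6 had probe sets, the median difference was -0.05, and 0 had an unadjusted p under 0.05 by limma. P2ry13 read 6.36 and 6.21 against 6.30, 6.10 and 6.03, and P2ry10, a lysophospholipid receptor of lymphocytes, read 3.96 and 4.15 against 3.96, 3.96 and 3.89. P2rx2, P2rx6, P2ry4 and P2ry10b differed by between -0.06 and 0.02 at the probe set of each with the highest mean. The other P2rx6 probe set gave 0.16 (SE 0.13). Of the adenosine receptors only Adora3 was measured, at 0.03 (SE 0.03).

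Ectonucleotidases, which degrade ATP and ADP to AMP and adenosine at the cell surface, had a median difference of -0.01 over 8 genes, and 0 were called by limma, with 1 lower at an unadjusted p of 0.05. That was Alpl, tissue-nonspecific alkaline phosphatase, which read 7.66 and 7.52 in non-transgenic and 7.27, 7.22 and 6.99 in P467L arrays. The groups did not overlap, and the difference was -0.43 (SE 0.11, limma adjusted p = 0.512). Nt5e, the CD73 enzyme that makes adenosine from AMP, read 7.36 and 7.28 against 7.26, 7.07 and 6.89, a difference of -0.25 (SE 0.12, limma adjusted p = 0.784). Entpd1, the CD39 enzyme that removes ATP and ADP, differed by 0.02 (SE 0.05) at its probe set with the highest mean. Its other probe sets, which are not dim, read lower, by -0.15 (SE 0.05) and -0.13 (SE 0.06).

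Nucleotide release and adenosine handling had a median difference of 0.07 over 13 genes, with 0 called by limma and, at an unadjusted p of 0.05, 2 higher and 1 lower. Gja4, a connexin of endothelial gap junctions, read 9.26 and 9.39 in non-transgenic and 10.11, 9.90 and 9.72 in P467L arrays. All P467L arrays were higher, by a difference of 0.59 (SE 0.13, limma adjusted p = 0.475). Adenosine kinase, Adk, read 11.33 and 11.35 against 11.19, 11.22 and 11.24, a difference of -0.12 (SE 0.04, limma adjusted p = 0.551). The pannexin channel Panx1, a route of ATP release, differed by 0.07 (SE 0.14).

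Signalling below the receptors had a median difference of 0.04 over 23 genes, with 0 called by limma and 2 higher and 0 lower at an unadjusted p of 0.05. Prkcd, protein kinase C δ, read 10.26 and 10.24 in non-transgenic and 10.44, 10.52 and 10.43 in P467L arrays, a difference of 0.21 (SE 0.04, limma adjusted p = 0.445). Plcb3, a phospholipase C activated by Gq, read 9.08 in either control and 9.26, 9.26 and 9.20 in the P467L arrays, a difference of 0.16 (SE 0.04, limma adjusted p = 0.489). In both, the groups did not overlap.

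Noradrenaline and neuropeptide Y are released from the same nerves as ATP. Of 13 listed receptors for them 6 were measured, with a median difference of -0.06 and 0 called by limma, and at an unadjusted p of 0.05 1 was higher and 2 lower. Npy1r, the main neuropeptide Y receptor of vascular smooth muscle, read 9.61 and 9.50 in non-transgenic arrays, 10.14 in P467L replicate 1 and 10 in each other P467L array. It was higher in 3 of 3 arrays, by 0.49 (SE 0.07, limma adjusted p = 0.298). The other Npy1r probe set, which is dim, gave -0.19 (SE 0.17). Npy5r, mostly known from the brain, read 5.50 and 5.54 against 5.24, 5.16 and 5.01, a difference of -0.38 (SE 0.08, limma adjusted p = 0.445). These values are all below 6.23, and the other Npy5r probe set gave -0.05 (SE 0.04). The adrenergic receptors measured, Adra1b and Adra2c, differed by -0.06 (SE 0.13) and 0.05 (SE 0.14).

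**Figure D5:**
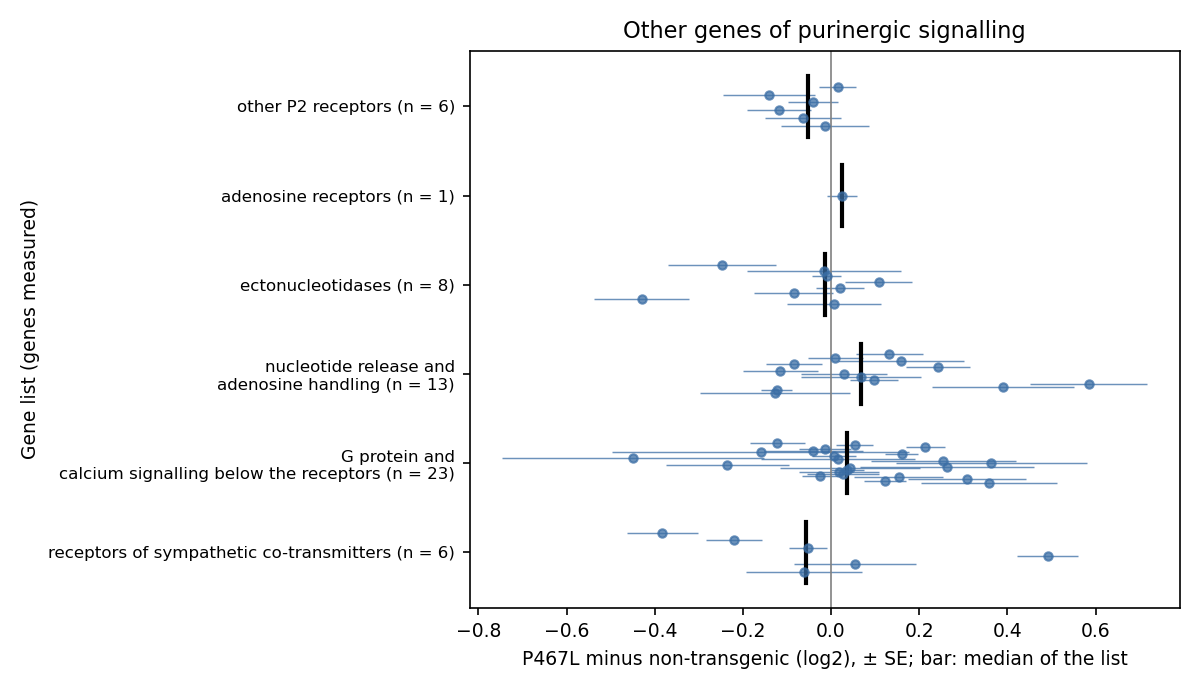
Difference P467L minus non-transgenic (log2, ± SE) of each measured gene in 6 lists of purinergic and co-transmitter signalling, with a bar at each list's median. The medians lie between -0.06 and 0.07, and single genes between -0.45 and 0.59.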

How the data were processed

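RNA on 5 Affymetrix mouse genome arrays was analysed. Per the submitters' processing notes, the authors used RMA in Affymetrix Power Tools (no version is named), and the deposited values are on its log2 scale. RMA brings the probe intensities of all arrays to 1 distribution, which largely removes any change common to most transcripts. The probe set values it gives can still differ between arrays, and the array medians here ran from 6.17 to 6.25. Probe sets were named from the platform annotation, with symbols updated by NCBI gene number (GRCm38.p6 gene table, used for names, neighbours and promoter windows), and a gene was read from its probe set with the highest mean. The 64 control probe sets were left out. limma 3.58.1 in R 4.3.3 (lmFit, eBayes) compared the genotypes over all 45037 probe sets with Benjamini-Hochberg adjustment; the prior had 1.23 of 4.23 degrees of freedom. The pipeline was tested on simulated data.

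The receptors and all gene lists were chosen with earlier results of these data known. The text names every receptor probe set, the 5 genes nearest to P2rx1, the P2rx1 neighbours, the markers, and the genes of each list past the threshold or, where none passed, the 2 with the smallest p. Other genes named (Entpd1, Panx1, Adra1b, Adra2c, the rest of the P2 receptors, Myoz2 and those of the closing section) were picked after their values were seen. The pools are labelled as independent; replicate numbers are not described as pairs. Alternatives tried were a replicate block, other normalizations and filters, variance trend, array weights, 1 probe set per gene and leaving out each array. The sources used here name no batch. With 2 and 3 arrays, precision is limited by their number.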

Additional observations from a re-analysis of the deposited data

How the results depend on the processing

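Every setting in which they were fitted kept the sign of P2rx1 (-2.23 to -1.75 and -1.63 to -1.52 for its probe sets), P2ry12 (-0.74 to -0.53), P2ry14 (0.75 to 1.11) and P2ry1 (0.20 to 0.39); 7 of the 18 probe sets, all of P2rx3, P2rx4, P2rx5, P2rx7 or P2ry6 and each with a main difference under 0.2 in size, changed sign under at least 1 setting. With the replicate number as a block, which the labels do not support as pairs, P2rx1 measured -1.75 at 1460719_a_at and 0 probe sets were called, as in the fit without it. The count over all probe sets was 15 with median centring, 17 at an adjusted p of 0.10, 10 with 1 probe set per gene, 283 with array weights estimated gene by gene (added after the data were seen) and 2245 with REML array weights. The REML weights did not converge and gave P467L replicate 2 a weight of 34.1 against 0.15 to 0.90 for the others; 8 of the 57 other pathway genes were called with them. Receptor probe sets with every P467L array below numbered 3 to 7 when 1 array was left out and 8 without the 2 arrays that stood apart, where fewer arrays have to separate. Those with every P467L array above numbered 1 under either filter on dim probe sets, which removes P2ry1, P2ry14 and the P2rx7 probe set; the filter on the mean level also removes P2ry12, which leaves 2 with every P467L array below. Only 2 and 3 arrays, with values of 2 decimals, limit what can be seen in dim probe sets.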

Other observations

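The probe sets of 4 nucleotide-handling genes, picked after their values were seen, are given here: those of Gja1 and Nt5e shared a direction, and those of Adk and Acpp did not. Gja1, a connexin of gap junctions and hemichannels, was higher in P467L aortas by all 6 of its probe sets, by 0.30 (SE 0.14) to 0.63 (SE 0.16). Its probe set with the highest mean read 11.96 and 12.22 in non-transgenic and 12.23, 12.60 and 12.61 in P467L arrays, with an adjusted p of 0.732 by limma. The 6 probe sets of Adk ranged from -0.64 (SE 0.20) to 0.08 (SE 0.08), and the bright pair both read lower, by -0.29 (SE 0.04) and -0.12 (SE 0.04). Acpp, the transmembrane prostatic acid phosphatase that makes adenosine from AMP, gave -0.48 (SE 0.06), 0.01 (SE 0.11) and 0.13 (SE 0.09) at its 3 probe sets, all dim. All 3 probe sets of Nt5e read lower, by -0.07 (SE 0.06) to -0.28 (SE 0.09).

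Within the smooth muscle markers, Des, the intermediate filament desmin, read 9.54 and 9.35 in non-transgenic and 10.43, 10.26 and 10.06 in P467L arrays, while the 5 other markers differed by between -0.05 and 0.16. Among the striated muscle markers, Ckm, the creatine kinase of muscle, read 7.67 and 7.09 against 9.08, 8.77 and 8.27, while Acta1, Myl1 and Tnnt3 differed by -0.28, -0.16 and -0.08. As with P2ry14, P467L replicate 1 was the highest array for Des and Ckm.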
